A study of Homo sapiens with 36 samples.

Results

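The 48 genes described here make up the coats, cargo receptors, matrix proteins and small GTPases that move proteins between the endoplasmic reticulum and the Golgi. They were chosen by name, from a list of COPI, COPII, TMED and Golgi matrix genes and their partners. Earlier results of these data were known when the list was made. All 48 were among the 36601 genes of the count table, and all 48 passed the filter on low counts, which kept 14892 genes. By role they fall into 7 classes: 8 subunits of the COPI coat, 11 genes of the COPII coat, 6 TMED cargo receptors, 11 golgins and other matrix genes, 7 ARF GTPases and their regulators, 3 KDEL receptors and 2 SNAREs.

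The values come from bulk RNA sequencing of HEK293 cells, an established line derived from human embryonic kidney, in which endogenous proteins had been tagged in a pool with HaloTag. HaloTag is an engineered protein tag with covalent ligands, of which HyT36 is a hydrophobic one used to misfold the tagged protein. Each of 12 libraries came from a tagged clone, numbered 4 or 5, given either the vehicle DMSO or 25 µM HyT36, with 3 libraries in each of the 4 groups. All 4 groups carry a tag, no untagged bulk library was used here, and each line is 1 clone, so that a difference between lines is a difference between these clones. The sources used here give neither the tagged protein of either clone nor the length of the bulk exposure. Nothing in the labels says that the 3 libraries of a group came from separate cultures, so the p-values measure the spread between these libraries, which may be technical.

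Secretory proteins leave the endoplasmic reticulum in vesicles coated with COPII, which is built from the GTPase SAR1, the cargo-binding SEC23 and SEC24 pair, and the outer cage of SEC13 and SEC31. COPI, a coat of coatomer subunits recruited by ARF GTPases, returns escaped residents and receptors from the Golgi. TMED proteins, also called p24 proteins, and KDEL receptors are the membrane proteins that carry cargo in these vesicles, while golgins and GORASP proteins hold the Golgi stack together and capture arriving vesicles. Many of these genes are known to be raised when misfolded proteins collect in the endoplasmic reticulum, through the transcription factors XBP1 and ATF6, which bind elements holding CCACG or ACGTG.

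The start regions of 4 members are printed because the data turn on them: COPA, COPB2 and COPG2 are the COPI genes with a call in a ligand response, and KDELR3 had the widest difference between the clones. Each sequence is the RefSeq strand of the gene on GRCh38.p14, from 250 bases before a transcript start to 50 bases after it, 5′ to 3′. Capitals mark the motif CCAAT, the motif CCACG and the motif ACGTG on either strand, and the last pair can share letters.
COPA, chr1:160343201-160343500, minus strand: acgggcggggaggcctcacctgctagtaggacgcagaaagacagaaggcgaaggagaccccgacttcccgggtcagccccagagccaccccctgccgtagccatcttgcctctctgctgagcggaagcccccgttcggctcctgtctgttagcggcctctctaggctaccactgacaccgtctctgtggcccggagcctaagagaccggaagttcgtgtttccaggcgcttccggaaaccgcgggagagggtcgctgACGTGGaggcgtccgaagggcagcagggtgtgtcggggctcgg
COPB2, chr3:139389631-139389930, minus strand, the window farther upstream of a pair in the table: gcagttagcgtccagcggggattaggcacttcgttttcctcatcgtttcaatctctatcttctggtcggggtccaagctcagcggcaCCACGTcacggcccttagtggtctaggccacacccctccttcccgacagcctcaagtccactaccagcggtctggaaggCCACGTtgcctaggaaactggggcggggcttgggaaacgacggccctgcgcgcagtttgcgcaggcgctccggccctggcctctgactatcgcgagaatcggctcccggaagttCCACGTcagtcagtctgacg
COPG2, chr7:130668699-130668998, minus strand: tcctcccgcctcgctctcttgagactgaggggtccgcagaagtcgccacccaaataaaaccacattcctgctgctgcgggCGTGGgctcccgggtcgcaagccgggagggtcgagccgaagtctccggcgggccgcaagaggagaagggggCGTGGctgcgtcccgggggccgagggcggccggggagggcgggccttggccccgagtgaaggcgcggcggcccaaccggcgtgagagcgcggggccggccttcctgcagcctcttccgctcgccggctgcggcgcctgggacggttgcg
KDELR3, chr22:38467846-38468145, plus strand: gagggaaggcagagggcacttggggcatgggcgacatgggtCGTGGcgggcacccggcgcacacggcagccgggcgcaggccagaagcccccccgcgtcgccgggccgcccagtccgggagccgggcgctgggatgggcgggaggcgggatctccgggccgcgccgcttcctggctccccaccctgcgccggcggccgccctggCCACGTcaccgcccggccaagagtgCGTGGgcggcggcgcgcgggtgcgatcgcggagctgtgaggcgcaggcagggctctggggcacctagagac

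The COPA window held 1 CCACG and 1 ACGTG, which share letters, and the COPB2 window held 3 of each. In the COPG2 window CCACG stood 2 times with no ACGTG, and the KDELR3 window held CCACG 3 times and ACGTG 1 time. None of these windows held CCAAT. Of the 48 genes, 41 had an entry in the RefSeq promoter table, with 54 windows. CCACG stood in 88.9% of those windows and in 38.1% of all 35116 windows of the same length, and ACGTG in 70.4% against 21.4%. CCAAT stood in 31.5% against 34.6%, the cyclic AMP element TGACGTCA in 1.9% against 1.8%, and the GC box GGGCGG in 79.6% against 45.0%, all searched on both strands. The full stress element, CCAAT and CCACG with 9 bases between them, was in 0 of the 54 windows and in 27 of all windows. The listed windows were also richer in G and C, at a median of 67.7% against 58.7%, and the part of base composition in these shares was not tested. SEC24D, TMED9, GOLGA4, USO1, ARF4, ARFGAP1 and KDELR2 were not matched.

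The libraries held 22853946 to 28635511 gene counts, and a listed gene had 111 to 16381 reads in a library. Together the 48 genes took 0.651 to 0.662% of the gene counts in clone 4 and 0.668 to 0.687% in clone 5. The share moved little in size, but every clone 5 library lay above every clone 4 library. Levels are TMM-scaled CPM, the share of a library's gene counts scaled by trimmed means, which can be compared between libraries for a gene but not between genes, since gene length is not taken into account. Of the markers of the line, VIM stood at 151 to 233 CPM and LIN28B at 128 to 160 CPM in all 12 libraries, whereas NEFM and NEFL had 5 reads each in all libraries together. Blood markers were near 0, with no read of CD3E or HBB, while the liver gene ALB stood at 9.37 to 124 CPM. Epithelial transcripts set 6 libraries apart: KRT19 was at 32.2 to 69.9 CPM in every DMSO library of clone 5, in replicates 2 and 3 of clone 4 with HyT36 and in its DMSO replicate 1, and at 0.0419 to 0.235 CPM in the other 6. The summed level of the 12 epithelial markers was 55.6 to 109 CPM in the former and 6.34 to 8.25 CPM in the latter. After KRT19 the highest levels were those of KRT7, up to 14.9 CPM, and CLDN7, up to 4.58 CPM. CDH1, CLDN3, CLDN7, ELF3 and ESRP1 were not higher in each of the former libraries than in all of the latter. In clone 5 this split runs exactly along the ligand, so the 2 cannot be told apart within that clone. Calls of listed genes that ended or arose when a model term for these libraries was added are named with the results. The size of that term comes from clone 4 alone and is taken to hold in clone 5, where it cannot part the split from the ligand. Fits restricted to the libraries high or low in KRT19 leave 1 clone 4 library in a group, whose spread is taken from the other groups. Of 22344 guide features counted beside the genes, 0 were named for a listed gene.

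Exposure to HyT36 moved few of the trafficking genes, and by small amounts. In clone 4, 2 of the 48 genes passed the test (edgeR quasi-likelihood F-test, Benjamini-Hochberg adjusted p under 0.05 over all genes tested), 0 higher and 2 lower: the cargo receptor TMED9 and the ARF1 GTPase activator ARFGAP1. Among all genes tested in clone 4, 5.57% were called, 2.21% higher and 3.36% lower, so 2 of 48 is close to the background. In clone 5, 6 of the 48 passed, 3 higher and 3 lower: the COPI subunits COPA, COPB2 and COPG2 rose, and SAR1B, TMED9 and ARFGAP1 fell. The background in clone 5 was 8.19%, with 3.35% higher and 4.83% lower. Both clone 4 calls were among the 6 of clone 5, in the same direction, and the responses of the clones share no library. The share of clone 4 calls over all genes that were also called in clone 5 was not counted. At an unadjusted p under 0.05, 15 of the 48 passed in clone 4 (31.3%, beside 18.5% of all genes) and 17 in clone 5 (35.4%, beside 20.0%).

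The median log2 fold change of the 48 genes was 0.036 in clone 4 and 0.047 in clone 5, beside 0.0027 and -0.0045 over all genes tested. The clone 5 median was 0.0096 with the term for epithelial libraries and 0.015 without clone 5 HyT36 replicate 2. The clone 4 median was 0.023 without clone 4 DMSO replicate 1, 0.021 without clone 4 HyT36 replicate 1 and 0.022 in the libraries high in KRT19 alone. Estimates were above 0 for 31 of the 48 in clone 4 and 30 in clone 5, while 50.8% and 48.8% of all genes were above 0. The 3 HyT36 libraries did not overlap the 3 DMSO libraries for 18 genes in clone 4 and 15 in clone 5, which is 37.5% and 31.3% of the list against 23.5% and 25.1% of all genes. The plot of ligand responses by gene shows how the classes differed.

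**Figure D1:**
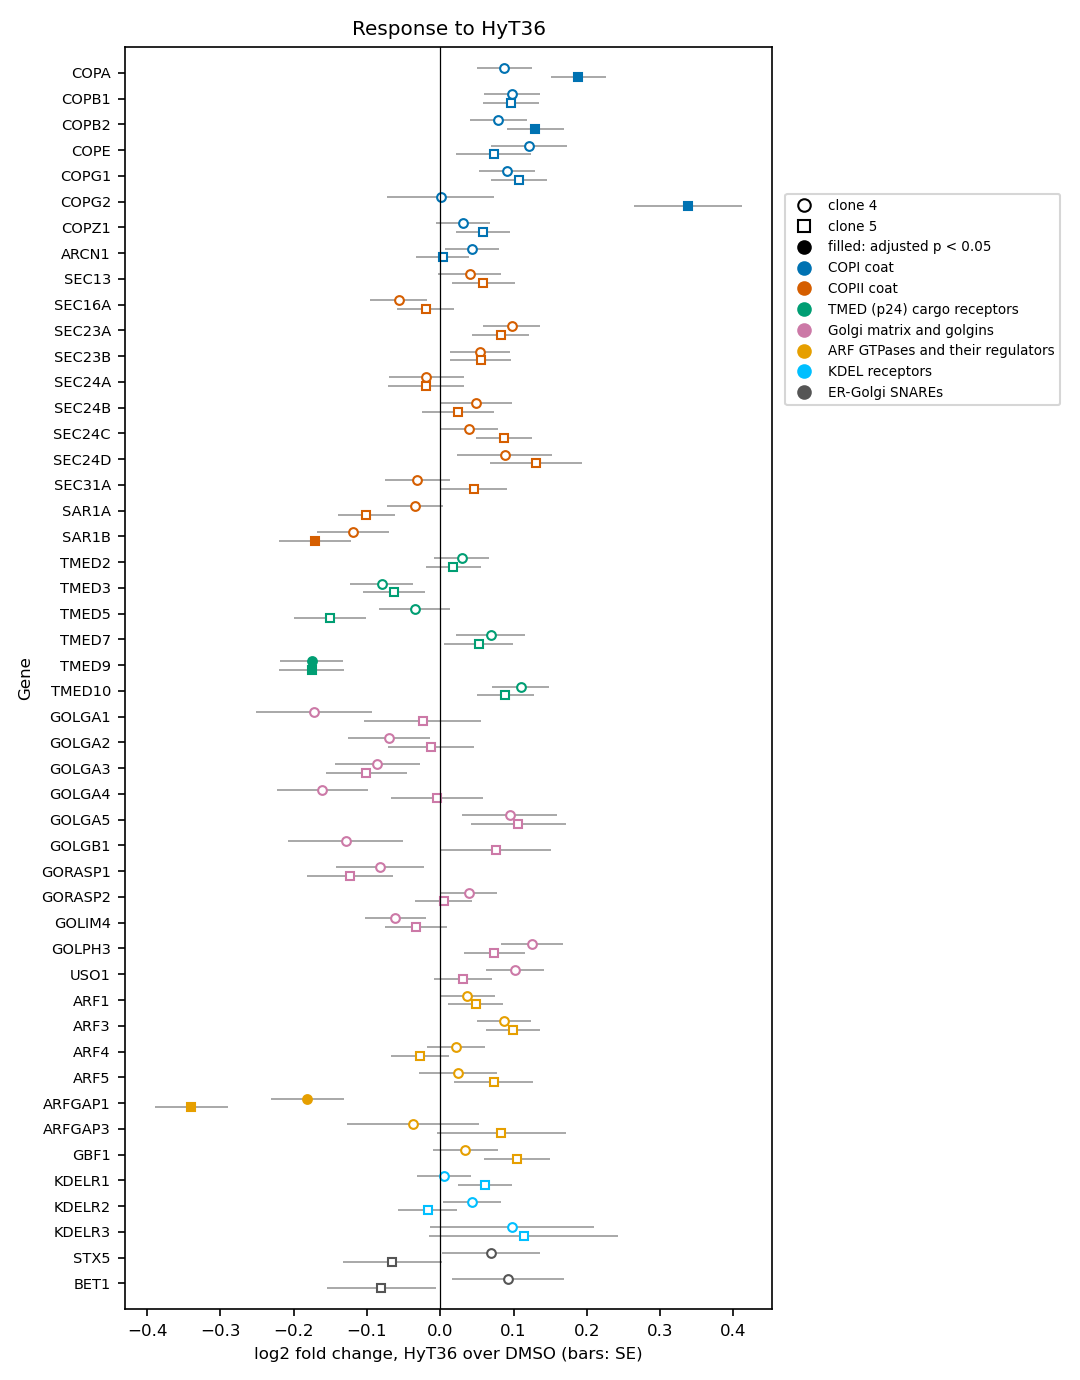
Log2 fold change of HyT36 over DMSO (x axis) for each of the 48 trafficking genes (y axis), with circles for clone 4, squares for clone 5, bars for the standard error and fill for an adjusted p under 0.05. All COPI estimates lie above 0, and the 8 filled points are TMED9 and ARFGAP1 in both clones and COPA, COPB2, COPG2 and SAR1B in clone 5.

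The COPI coat was the class whose ligand estimates all lay above 0 in both clones, 8 of 8, with a median log2 fold change of 0.083 in clone 4 and 0.10 in clone 5. Over all genes, 50.8% of the estimates in clone 4 and 48.8% in clone 5 were above 0. Of the 8 COPI genes, 0 passed in clone 4 and 3 rose in clone 5. That is 0% and 37.5%, beside 2.21% and 3.35% of all genes called higher. None of the 3 passed with the term for epithelial libraries. Across the alternatives run, the COPI median stayed between 0.060 and 0.098 in clone 4 and between 0.080 and 0.13 in clone 5, with 7 or 8 subunits above 0. COPA encodes the alpha subunit, which binds the dilysine tail of retrieved cargo. Its level in clone 5 was 257, 259 and 267 CPM with DMSO and 293, 311 and 288 CPM with HyT36, and in clone 4 242, 259.6 and 248 CPM and 270.5, 265 and 261 CPM. The HyT36 libraries lay above the DMSO libraries in each clone without overlap. COPA rose by 14.0% in clone 5 (log2 fold change 0.19, SE 0.038, adjusted p 0.00074), and the clone 4 estimate was 0.088 (SE 0.038, adjusted p 0.19).

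COPB2, the beta-prime subunit that shares the dilysine binding, stood at 245, 238 and 251 CPM in the DMSO libraries of clone 5 and at 280.1, 273 and 251 CPM with HyT36. The groups touched, since the lowest HyT36 library lay just under the highest DMSO library, and the change was 9.42% (log2 0.13, SE 0.039, adjusted p 0.028). In clone 4, COPB2 went from 222, 224 and 215 CPM to 235, 235 and 228 CPM, a log2 estimate of 0.079 (adjusted p 0.27). The COPB2 call of clone 5 was lost when DMSO replicate 1 (adjusted p 0.083), DMSO replicate 2 (0.16), HyT36 replicate 1 (0.17) or HyT36 replicate 2 (0.11) was left out. COPG2 is the less abundant in reads of the gamma subunit pair, and it had the largest rise of the list in clone 5. It stood at 15.8, 15.0 and 15.1 CPM with DMSO and at 19.6, 20.2 and 18.2 CPM with HyT36, 26.4% higher (log2 0.34, SE 0.074, adjusted p 0.0021). In clone 4 the COPG2 libraries overlapped, at 17.8, 18.2 and 18.9 CPM and 18.7, 18.8 and 17.4 CPM, with an interval of the log2 fold change from -0.14 to 0.14. The span of COPG2 overlaps MEST, COPG2IT1 and TSGA13 in RefSeq, and without strand their reads may be shared. MEST had a mean of 1.22 CPM and a clone 5 ligand estimate of -0.70 (adjusted p 0.38), opposite in sign to COPG2. Between the clones MEST was lower in clone 5, by -2.29 on the log2 scale with DMSO (adjusted p 5.9e-08), the sign of the COPG2 difference of -0.26, and its part in that difference was not tested.

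The other 5 coatomer genes were not called in either clone. COPG1, the major gamma subunit, stood at 133, 138 and 139 and then 149, 148 and 145 CPM in clone 5, without overlap, with a log2 estimate of 0.11 (adjusted p 0.075). COPG1 passed in clone 5 with DESeq2's size factors (0.048), with DESeq2 (0.021) and without clone 4 DMSO replicate 2 (0.046). COPB1 had estimates of 0.10 in clone 4 and 0.10 in clone 5, and COPE, the epsilon subunit, 0.12 and 0.073. COPB1 passed in clone 5 without HyT36 replicate 3 (adjusted p 0.025), and COPE in clone 4 without DMSO replicate 2 (0.029). In the libraries high in KRT19, with 1 DMSO library of clone 4, COPE had a clone 4 log2 estimate of 0.30. COPZ1 and ARCN1, the zeta and delta subunits, had estimates from 0.0031 to 0.058. When a term for the libraries with epithelial transcripts was added, none of the 3 COPI genes passed in clone 5: COPA had a log2 estimate of 0.13 (adjusted p 0.15), COPB2 0.13 (0.20) and COPG2 0.29 (0.13).

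In the COPII coat the ligand estimates pointed both ways, 6 of 11 above 0 in clone 4 and 7 of 11 in clone 5, with medians of 0.040 and 0.046. Across the alternatives run the COPII median lay between -0.015 and 0.062 in clone 4 and between 0.0055 and 0.070 in clone 5, and it was below 0 only in the clone 4 libraries low in KRT19. Of the 11 genes, 0 passed in clone 4 and 1 fell in clone 5 (0% and 9.09%, beside 3.36% and 4.83% of all genes called lower). That gene was SAR1B, a paralog of the GTPase that starts coat assembly. SAR1B stood at 62.8, 64.0 and 68.6 CPM in clone 5 with DMSO and at 55.7, 59.5 and 58.4 CPM with HyT36, a drop of 11.2% (log2 -0.17, SE 0.049, adjusted p 0.022). Clone 4 moved from 66.4, 64.3 and 65.8 CPM to 63.4, 59.7 and 57.7 CPM, again without overlap, with an estimate of -0.12 (adjusted p 0.16). The clone 5 call of SAR1B was lost without DMSO replicate 3 (adjusted p 0.19), HyT36 replicate 1 (0.15) or HyT36 replicate 3 (0.061), and with the term for epithelial transcripts (0.077). The paralog SAR1A had estimates of -0.034 in clone 4 and -0.10 in clone 5, with an adjusted p of 0.11 in the latter. SEC23A, the inner-coat subunit, had estimates of 0.10 and 0.083, and SEC24D, a cargo adaptor, 0.088 and 0.13, none of them past the threshold. SEC16A, which marks the exit sites, had -0.057 and -0.020.

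TMED9 was the only cargo receptor of the list called with the ligand, with a log2 estimate of -0.18 in each clone. Its level was 137, 152 and 140.1 CPM with DMSO and 127, 130.2 and 124 CPM with HyT36 in clone 4, and 130.1, 125 and 125 CPM and 118, 106 and 112 CPM in clone 5. In each clone every HyT36 library lay below every DMSO library. The drop was 11.5% in clone 4 (log2 -0.18, SE 0.043, adjusted p 0.0088) and 11.5% in clone 5 (log2 -0.18, SE 0.044, adjusted p 0.0073). TMED9, on chromosome 5 at 177592203 to 177597242, overlaps no other RefSeq gene. The clone 4 call was lost without DMSO replicate 2 (adjusted p 0.12) or HyT36 replicate 3 (0.10), and the clone 5 call without DMSO replicate 1 (0.062) or HyT36 replicate 2 (0.079). Within the clone 4 libraries low in KRT19 the log2 estimate of TMED9 was -0.21 (adjusted p 0.10), and within those high in KRT19 it was -0.11 (0.26). Of the other 5 receptors 0 passed in either clone. TMED10, the partner that pairs with TMED2 in the p24 complexes, had estimates of 0.11 and 0.089, without overlap between the groups in either clone, and passed in clone 4 without DMSO replicate 1 (adjusted p 0.0098). TMED5 had -0.035 and -0.15, and its adjusted p of 0.051 in clone 5 lay next to the threshold. TMED5 passed there when clone 4 DMSO replicate 1, clone 4 HyT36 replicate 1, clone 5 DMSO replicate 2 or clone 5 HyT36 replicate 2 was left out (0.028 to 0.049).

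None of the 11 golgins and matrix genes passed in either clone, and 4 had an unadjusted p under 0.05 in clone 4 (36.4%, beside 18.5% of all genes) and 1 in clone 5 (9.09%, beside 20.0%). The class medians were -0.070 in clone 4 and -0.0040 in clone 5, with 7 and 6 of 11 estimates below 0. Across the alternatives run the median lay between -0.094 and -0.024 in clone 4 and on either side of 0, from -0.030 to 0.029, in clone 5. GOLPH3, a phosphoinositide reader that keeps glycosyltransferases in the Golgi, went from 128, 136 and 143 CPM to 146, 149.5 and 148 CPM in clone 4, without overlap (log2 0.12, adjusted p 0.072). GOLPH3 passed in clone 4 with the term for epithelial libraries (0.14, adjusted p 0.038), with DESeq2 (0.043), without the filter on low counts (0.039) and without clone 4 DMSO replicate 3 (0.033). In the libraries high in KRT19, with 1 DMSO library of clone 4, GOLPH3 had a clone 4 log2 estimate of 0.22. GOLGA4 and GOLGA1, golgins of the trans-Golgi, had the lowest clone 4 estimates of the class, -0.16 and -0.17, with adjusted p of 0.13 and 0.23. In clone 5 their estimates were -0.0040 and -0.024.

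ARFGAP1 fell with the ligand in both clones. This activator of GTP hydrolysis on ARF1 governs the uncoating of COPI vesicles, and its gene lies on chromosome 20 at 63272813 to 63289790, where it overlaps MIR4326. Its level fell from 65.1, 66.7 and 61.3 CPM to 55.7, 58.7 and 55.9 CPM in clone 4 and from 67.4, 67.7 and 64.3 CPM to 52.6, 49.9 and 54.9 CPM in clone 5, with no overlap in either. The drop was 11.8% in clone 4 (log2 -0.18, SE 0.049, adjusted p 0.02) and 21.0% in clone 5 (log2 -0.34, SE 0.05, adjusted p 7.6e-06). The clone 5 call held in all 19 alternatives run. These include the term for epithelial transcripts, which is sized in clone 4 and cannot part the split from the ligand in clone 5. In clone 4 the ARFGAP1 call was lost without DMSO replicate 2 (adjusted p 0.11), HyT36 replicate 1 (0.092) or HyT36 replicate 3 (0.12). Within the clone 4 libraries low in KRT19 the estimate was -0.20 (adjusted p 0.27), and within those high in KRT19 it was -0.18 (0.087). The 4 ARF GTPases, the exchange factor GBF1 and the other activator ARFGAP3 were not called. ARF1 itself, which recruits coatomer, had estimates of 0.037 in clone 4 and 0.048 in clone 5, and ARF3 had 0.087 and 0.10, the latter with an adjusted p of 0.091. In clone 5, ARF3 passed with DESeq2 (0.024) and without HyT36 replicate 3 (0.043), and GBF1 without DMSO replicate 3 (0.031). In the libraries high in KRT19, with 1 DMSO library of clone 4, ARF5 had a clone 4 log2 estimate of 0.22.

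The 3 KDEL receptors, which return soluble residents of the endoplasmic reticulum, and the SNAREs STX5 and BET1, which fuse arriving vesicles, showed no call with the ligand. KDELR1 had an interval of the log2 fold change from -0.067 to 0.077 in clone 4 and from -0.011 to 0.13 in clone 5. For KDELR2 the intervals were -0.034 to 0.12 and -0.10 to 0.061. KDELR3, with the fewest reads of the list, had wider ones, -0.12 to 0.32 and -0.14 to 0.37. STX5 and BET1 had estimates of 0.070 and 0.092 in clone 4 and of -0.066 and -0.081 in clone 5.

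**Figure D2:**
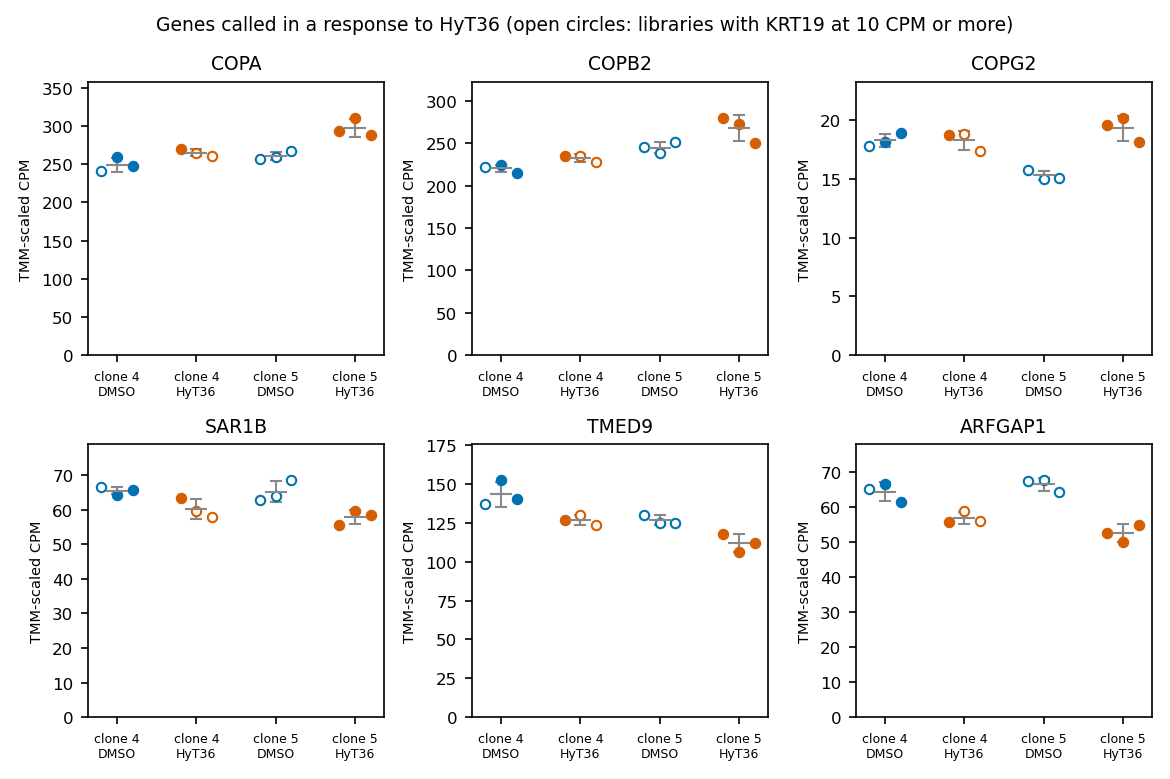
TMM-scaled CPM (y axes, from 0) in each library of the 4 groups (x axes) for the 6 genes called in a ligand response; bars are the mean and SD of 3 libraries, and open circles are libraries with KRT19 at 10 CPM or more. TMED9 and ARFGAP1 lie lower with HyT36 in both clones, and COPG2 rises from 15.8, 15.0 and 15.1 to 19.6, 20.2 and 18.2 CPM in clone 5 while its clone 4 libraries overlap.

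Whether the clones responded differently was tested with the interaction of clone and ligand. Of the 48 genes 0 passed that test by edgeR, and 0 passed by DESeq2 or limma-voom; the background was 0.302% of all genes. With an unadjusted p under 0.05 there were 2 (4.17%, beside 8.00% of all genes). COPG2 rose more in clone 5, by 0.34 on the log2 scale (95% interval 0.13 to 0.54, unadjusted p 0.0024, adjusted p 0.23). ARFGAP1 fell more in clone 5, with a difference of -0.16 (interval -0.30 to -0.021, adjusted p 0.55). The intervals of the other called genes were -0.057 to 0.16 for COPB2, -0.19 to 0.084 for SAR1B and -0.12 to 0.12 for TMED9. The COPA difference was 0.10 (SE 0.053, adjusted p 0.64). A call in 1 clone and not in the other is therefore not a shown difference between the clones for any of these genes.

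A further 85 genes of the same routes were read from the same fit, of which 84 were tested; COPZ2, with at most 0.296 CPM, was not. In clone 4, 3 of the 84 rose and 4 fell, 8.33% beside 5.57% of all genes, and in clone 5, 3 rose and 6 fell, 10.7% beside 8.19%. GOLPH3L, the relative of GOLPH3, rose in both clones (log2 0.29, adjusted p 0.0081, and 0.25, adjusted p 0.018), as did ARFGEF2, an ARF exchange factor of the trans-Golgi (0.17 and 0.18). TGOLN2, a protein that cycles through the trans-Golgi, fell from 92.5, 87.9 and 85.6 to 69.5, 70.7 and 69.3 CPM in clone 4 (log2 -0.34, adjusted p 5.3e-07) and from 73.3, 75.7 and 75.9 to 62.4, 62.5 and 66.2 CPM in clone 5 (-0.24, adjusted p 0.00041). MCFD2, the cofactor of the LMAN1 cargo receptor, fell as well (-0.17 and -0.26), and so did the SNARE GOSR2 (-0.16 and -0.20). Calls in clone 4 alone were the SNARE BNIP1 (-0.30) and the transcription factor XBP1 (0.58). Those in clone 5 alone were TRAPPC11 (0.21) and TRAPPC2L (-0.17) of the TRAPP tether, LMAN2L (-0.20) and ARFGAP2 (-0.16), a relative of ARFGAP1. Of these 84 genes XBP1 alone passed the test of the difference between clones. XBP1 stood at 133, 134 and 133 CPM in clone 4 with DMSO and at 197, 198 and 203 CPM with HyT36, and at 136, 127 and 129.8 and 132, 127 and 134 CPM in clone 5.

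The clones differed from each other far more than either responded to the ligand. In the DMSO libraries 27 of the 48 genes were called, 13 higher and 14 lower in clone 5, beside 55.5% of all genes tested, 27.3% higher and 28.2% lower. In the HyT36 libraries 27 were called, 15 higher and 12 lower, beside 56.0% of all genes, 27.0% higher and 28.9% lower. The 27 genes are 56.3% of the list, close to the background in each comparison. The libraries of the clones did not overlap for 30 of the 48 genes with DMSO (62.5%, against 59.8% of all genes) and for 29 with HyT36 (60.4%, against 62.1%). The comparisons use different libraries of the same clones. In both, 23 genes were called, all in the same direction, 12 higher and 11 lower in clone 5. How many of all genes were called in both, or in the same direction, was not counted. COPG2, SEC31A, USO1 and KDELR1 were called with DMSO alone, COPA, SEC24C, ARFGAP3 and KDELR2 with HyT36 alone, and 17 in neither. The median difference of the list was near 0, at -0.018 and 0.011.

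**Figure D3:**
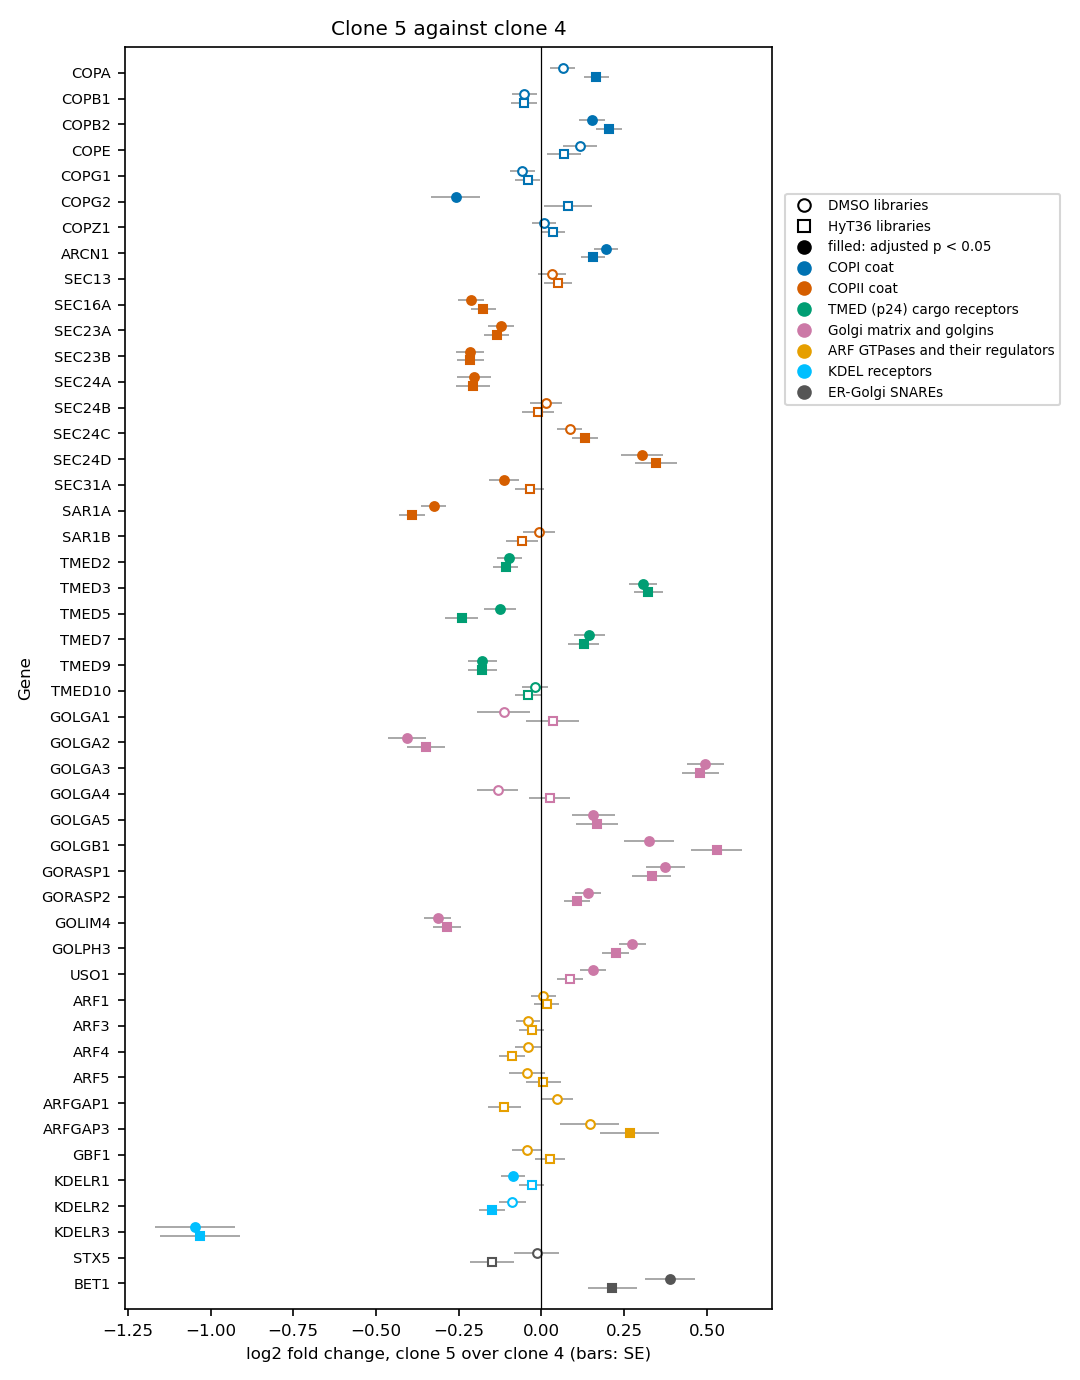
Log2 fold change of clone 5 over clone 4 (x axis) for each of the 48 genes (y axis), with circles for the DMSO libraries, squares for the HyT36 libraries, bars for the standard error and fill for an adjusted p under 0.05. KDELR3 lies farthest from 0 at -1.05 and -1.03, GOLGA3 and GOLGB1 reach about 0.50 above 0, and no point of an ARF GTPase is filled.

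KDELR3, the KDEL receptor with the fewest reads, was lower in clone 5 by 51.6% with DMSO and 51.1% with HyT36. Its DMSO libraries stood at 9.31, 10.2 and 12.0 CPM in clone 4 and at 4.62, 4.60 and 5.98 CPM in clone 5, and its HyT36 libraries at 11.7, 11.6 and 10.4 and 5.44, 6.21 and 4.84 CPM. All 6 libraries of clone 5 lay below all 6 of clone 4 (log2 -1.05, SE 0.12, adjusted p 1e-09 with DMSO, and -1.03, SE 0.12, adjusted p 1.2e-09 with HyT36). KDELR3, on chromosome 22 at 38468096 to 38483447, overlaps DDX17, whose mean of 296 CPM is far above it; DDX17 was lower in clone 5 as well (log2 -0.24 with DMSO and -0.092 with HyT36), and without strand shared reads cannot be told apart. The other receptors differed by less. KDELR1 stood at 169, 171 and 165 CPM in clone 4 and 155, 159.9 and 160.3 CPM in clone 5 with DMSO (log2 -0.086, adjusted p 0.044), a call that ended, with adjusted p of 0.051 to 0.16, when any of 9 libraries was left out: each clone 4 DMSO library, replicates 2 and 3 of clone 4 with HyT36, replicates 1 and 2 of clone 5 with DMSO, or its HyT36 replicates 1 and 3. The KDELR1 call also ended without the filter on low counts (adjusted p 0.11), with a replicate block (0.066), with the term for epithelial libraries (0.086) and in the libraries high in KRT19 (0.14). KDELR2 was at 207, 194 and 193 CPM in clone 4 and 175, 182 and 179 CPM in clone 5 with HyT36 (log2 -0.15, adjusted p 0.0015), and at 192, 184 and 199.9 and 184, 174 and 184 CPM with DMSO, where it passed with DESeq2's size factors (0.044), with DESeq2 (0.042) and without clone 4 DMSO replicate 2 (0.022). KDELR3 made up 2.90 ± 0.25% (SD, n = 6) of the reads of the 3 receptors in clone 4 and 1.52 ± 0.19% (n = 6) in clone 5, with ranges of 2.52 to 3.18% and 1.34 to 1.77%.

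Of the 11 golgins and matrix genes, 7 were higher and 2 lower in clone 5 with DMSO, and 6 higher and 2 lower with HyT36. That is 81.8% and 72.7% of the class, beside 55.5% and 56.0% of all genes and 83.3% of the TMED receptors in each comparison. GOLGA3, a peripheral golgin of the Golgi stack, was 41.0% higher in clone 5 with DMSO, at 55.3, 56.3 and 53.6 CPM against 38.9, 38.9 and 39.3 CPM (log2 0.50, SE 0.056, adjusted p 6.9e-10). With HyT36 it was 49.0, 48.9 and 56.1 CPM against 35.2, 36.4 and 38.8 CPM (log2 0.48). GOLGA2, the cis-Golgi golgin GM130 that binds GORASP1 and USO1, differed in the other direction. It stood at 34.3, 32.3 and 31.6 CPM in clone 5 and 42.1, 45.3 and 42.7 CPM in clone 4 with DMSO, 24.6% lower in clone 5 (log2 -0.41, SE 0.057, adjusted p 9e-08). With HyT36 the values were 33.7, 32.7 and 30.9 and 41.3, 42.2 and 40.6 CPM (log2 -0.35). GOLGA2 has 9 named pseudogene copies in RefSeq, and reads from them may be counted for it or lost.

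GORASP1, the stacking protein that holds GOLGA2 on the membrane, was higher in clone 5 while GOLGA2 was lower. It stood at 41.0, 47.6 and 45.3 CPM against 36.0, 34.5 and 33.0 CPM with DMSO (log2 0.37, SE 0.059, adjusted p 9.8e-07) and at 41.0, 41.0 and 41.1 against 31.0, 33.3 and 33.5 CPM with HyT36 (0.33). Its paralog GORASP2 differed by less, at 177, 175 and 184 CPM against 159, 166 and 162 CPM with DMSO (log2 0.14, adjusted p 0.0021). With HyT36 the GORASP2 difference was 0.11 (adjusted p 0.018), and it was lost without clone 4 HyT36 replicate 2 (0.069), replicate 3 (0.050) or clone 5 HyT36 replicate 1 (0.10) or 2 (0.052). GOLGB1, the long tether giantin, stood at 27.0, 34.3 and 31.5 CPM against 26.2, 24.4 and 23.6 CPM with DMSO (log2 0.32, SE 0.077, adjusted p 0.00052) and at 30.1, 32.8 and 35.1 against 22.7, 21.1 and 24.1 CPM with HyT36 (0.53, SE 0.077). Its DMSO values spread more widely than those of the other matrix genes named, and the lowest of clone 5 lay just above the highest of clone 4.

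GOLIM4, a cycling membrane protein of the cis-Golgi, was the other member of the class that was lower in clone 5. Its DMSO libraries stood at 134, 148 and 138 CPM against 168, 175 and 178 CPM (log2 -0.31, SE 0.041, adjusted p 2.5e-08), with -0.29 in the HyT36 libraries. GOLPH3 was higher, at 164, 169 and 159 CPM against 128, 136 and 143 CPM with DMSO (log2 0.28, adjusted p 4.5e-07), and with HyT36 its difference was 0.22. USO1, the tether p115, was at 169, 163 and 175 CPM against 157, 148 and 149.8 CPM with DMSO (log2 0.16, adjusted p 0.00099), and its difference with HyT36 was 0.085 (adjusted p 0.065). USO1 passed with HyT36 when clone 4 DMSO replicate 2, clone 5 DMSO replicate 2 or 3, or clone 5 HyT36 replicate 3 was left out (0.029 to 0.046). GOLGA5, a membrane-spanning golgin, stood at 33.9, 30.9 and 33.6 against 29.5, 28.9 and 29.8 CPM (0.16, adjusted p 0.04). That call was lost in 8 alternatives, among them leaving out any of the 3 clone 4 DMSO libraries (adjusted p 0.057 to 0.089) or clone 5 DMSO replicate 1 or 3 (0.12 each), and with HyT36 the call was lost without clone 4 replicate 2 (0.24) or clone 5 replicate 3 (0.11). GOLGA1 and GOLGA4 were not called, with differences of -0.11 and -0.13 with DMSO and 0.034 and 0.025 with HyT36. GOLGA4 passed with DMSO, lower in clone 5, with the term for epithelial libraries (-0.17, adjusted p 0.046), in the libraries high in KRT19 (0.044) and without clone 5 DMSO replicate 2 (0.010).

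**Figure D4:**
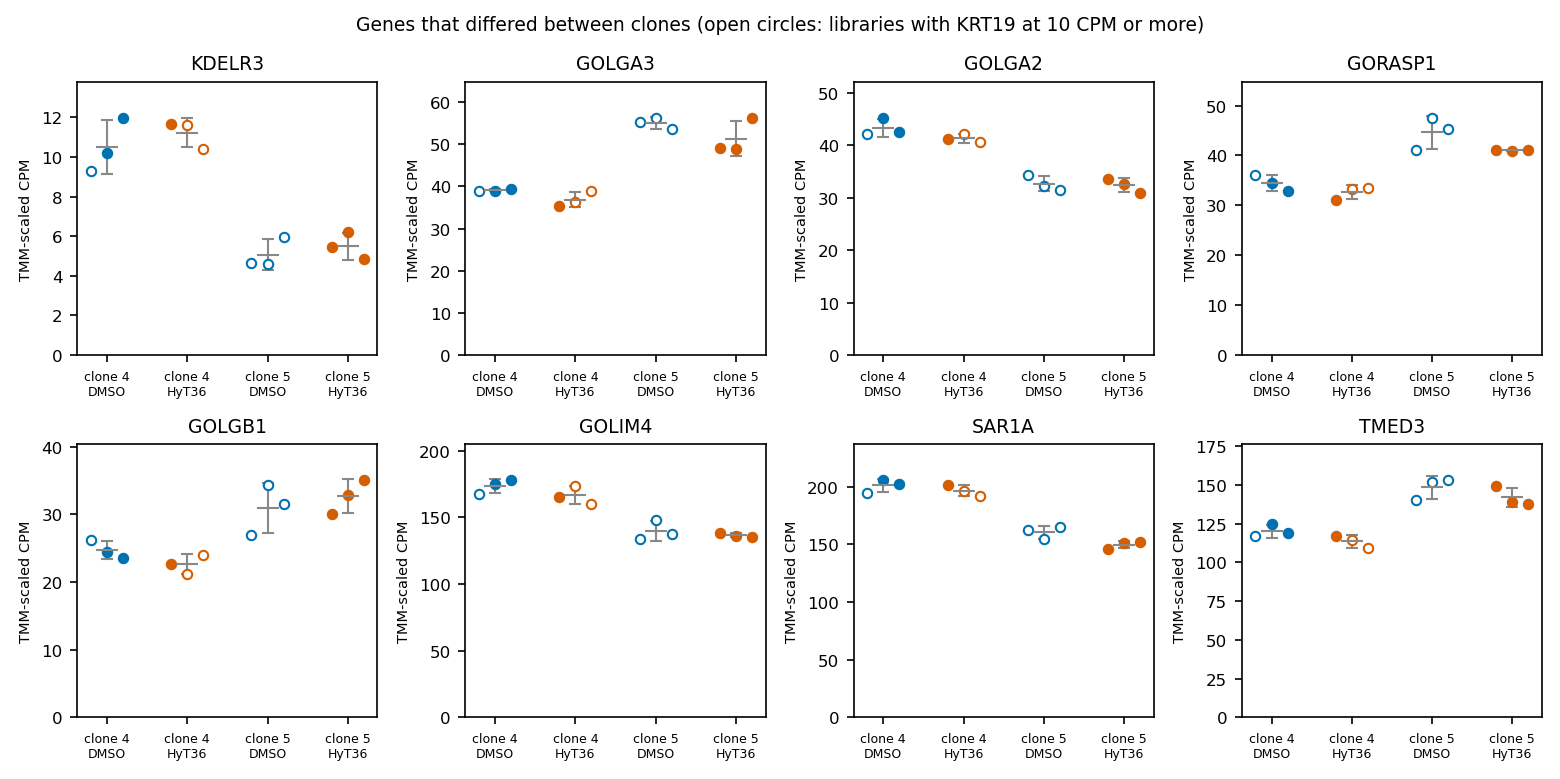
TMM-scaled CPM (y axes, from 0) in each library of the 4 groups (x axes) for 8 genes that differed between the clones; bars are the mean and SD of 3 libraries, and open circles are libraries with KRT19 at 10 CPM or more. The clones separate for every gene shown, with KDELR3, GOLGA2, GOLIM4 and SAR1A lower and GOLGA3, GORASP1, GOLGB1 and TMED3 higher in clone 5.

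In the COPII coat 1 of 11 genes was higher and 6 were lower in clone 5 with DMSO, and 2 were higher and 5 lower with HyT36. The 7 genes called are 63.6% of the class in each comparison, beside 55.5% and 56.0% of all genes. SAR1A, the GTPase that starts the coat, was 20.2% lower in clone 5 with DMSO, at 162, 154 and 165 CPM against 195, 206 and 203 CPM (log2 -0.33, SE 0.038, adjusted p 1.9e-09). With HyT36 it was at 146, 151 and 152 against 201, 196 and 192 CPM (-0.39), while its paralog SAR1B did not pass in either comparison (-0.0073 and -0.059). SAR1A accordingly took 76.0 ± 0.84% (SD, n = 6) of the reads of the pair in clone 4 and 71.6 ± 0.78% (n = 6) in clone 5, with no overlap between 74.6 to 76.8% and 70.6 to 72.4%. RefSeq names 4 pseudogene copies of SAR1A, whose reads may be mixed in.

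Both SEC23 paralogs were lower in clone 5, so their balance moved little. SEC23A stood at 184, 181 and 193 CPM against 204, 201 and 202 CPM with DMSO (log2 -0.12, adjusted p 0.0082) and SEC23B at 117, 110.0 and 122 against 134, 138 and 133 CPM (-0.22, adjusted p 2.5e-05). With HyT36 the differences were -0.14 and -0.22. The SEC23A call was lost without clone 5 DMSO replicate 2 (adjusted p 0.058) and, with HyT36, without clone 5 replicate 1 (0.052). SEC23A took 60.4 ± 0.70% of the reads of the pair in clone 4 and 61.8 ± 1.22% in clone 5 (SD, n = 6 each), and these ranges overlapped.

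The 4 SEC24 adaptors, which choose the cargo, split between the clones. SEC24D was higher in clone 5, at 35.0, 35.2 and 33.2 CPM against 30.2, 27.9 and 25.6 CPM with DMSO (log2 0.30, SE 0.064, adjusted p 0.00011), and by 0.35 with HyT36. SEC24A was lower, at 50.4, 54.2 and 53.6 against 62.8, 60.3 and 59.4 CPM (log2 -0.20, adjusted p 0.00079), and by -0.21 with HyT36. SEC24C was at 165, 172 and 175 against 159, 160.4 and 163 CPM with DMSO (0.085, adjusted p 0.059) and was called with HyT36 (0.13, adjusted p 0.0034). Without clone 5 DMSO replicate 1, SEC24C passed with DMSO too (0.032). SEC24B, at 54.4, 57.7 and 56.6 and 54.5, 54.9 and 57.8 CPM, was called in neither. SEC24D took 9.31 ± 0.61% of the reads of the 4 adaptors in clone 4 and 11.2 ± 0.45% in clone 5 (SD, n = 6 each), without overlap. SEC16A was lower in clone 5, at 126, 131 and 131 against 149.8, 152 and 147 CPM (log2 -0.21, adjusted p 1.2e-05). The cage subunit SEC31A was called with DMSO, at 198, 212 and 222 against 223, 233 and 228 CPM (-0.11, adjusted p 0.031), and the call was lost without clone 4 DMSO replicate 2 (0.13) or 3 (0.077) or clone 5 DMSO replicate 1 (0.23) or 2 (0.079). Its partner SEC13 was called in neither (0.031 and 0.050).

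**Figure D5:**
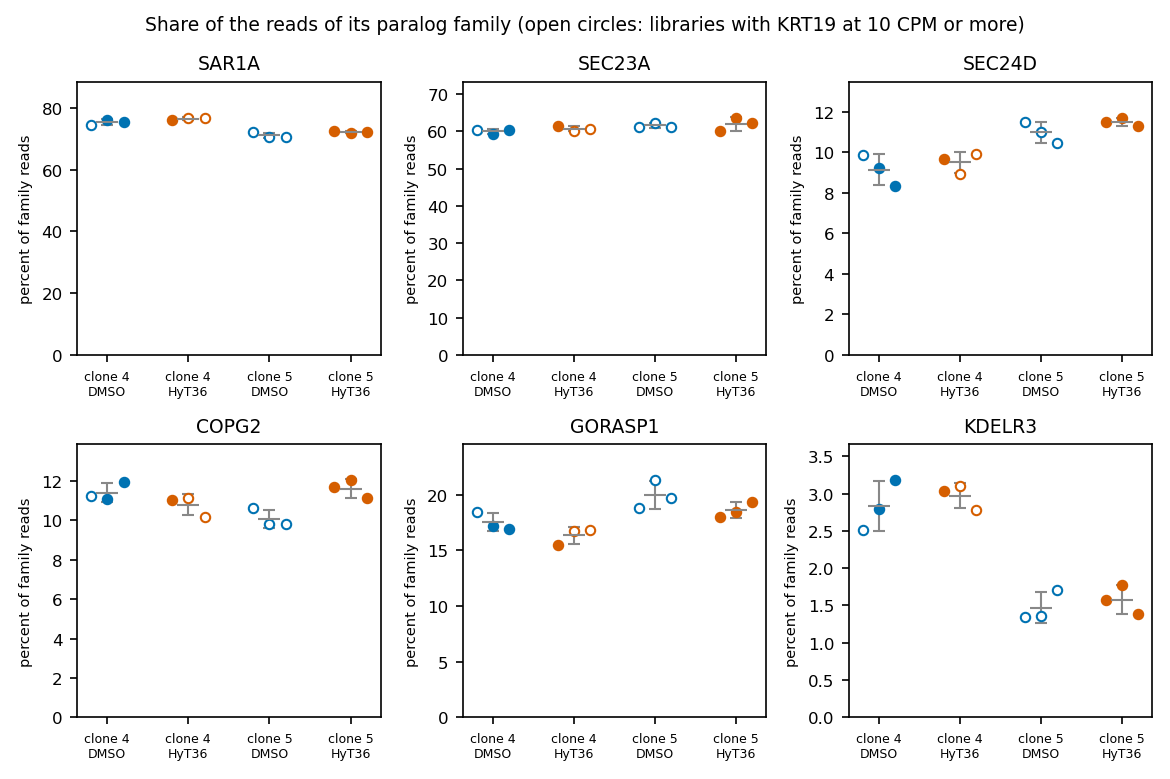
Percent of the reads of a paralog family (y axes, from 0) that fell on SAR1A, SEC23A, SEC24D, COPG2, GORASP1 and KDELR3 in each library of the 4 groups (x axes); bars are the mean and SD of 3 libraries, and open circles are libraries with KRT19 at 10 CPM or more. The clones do not overlap for SAR1A, SEC24D and KDELR3, and do for SEC23A, COPG2 and GORASP1.

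TMED receptors were called in 5 of 6 cases in each clone comparison, 2 higher and 3 lower in clone 5. That is 83.3% of the class, beside 55.5% of all genes with DMSO and 56.0% with HyT36. TMED3 stood at 140.0, 152 and 153 CPM in clone 5 and 117, 124 and 119 CPM in clone 4 with DMSO (log2 0.31, SE 0.043, adjusted p 9.6e-08), and differed by 0.32 with HyT36. TMED9 was lower in clone 5 by 11.7% with DMSO (log2 -0.18, adjusted p 0.00056) and by 11.7% with HyT36. The estimate is near that of its ligand response, with which the comparison shares the DMSO libraries. TMED5 was lower as well, at 77.8, 70.9 and 77.1 against 83.0, 78.8 and 84.5 CPM with DMSO (-0.13, adjusted p 0.028) and at 65.1, 70.3 and 68.1 against 86.2, 77.1 and 77.0 CPM with HyT36 (-0.24, adjusted p 6.5e-05). The TMED5 call with DMSO was lost without clone 4 replicate 3 (0.12) or clone 5 replicate 2 (0.20).

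TMED7 was higher in clone 5, at 81.9, 81.2 and 77.7 against 74.7, 73.0 and 70.2 CPM with DMSO (log2 0.14, adjusted p 0.009), a call lost without clone 4 replicate 3 (0.055). With HyT36 its libraries overlapped, and the call (0.13, adjusted p 0.019) was lost without clone 4 replicate 2 (0.14) or clone 5 replicate 2 (0.12). TMED2 was lower, at 293, 275 and 283 against 296, 296 and 317 CPM with DMSO (-0.10, adjusted p 0.026), and this call was lost without clone 4 replicate 3 (0.23), clone 5 replicate 2 (0.15) or the filter on low counts (0.056). With HyT36 the TMED2 difference was -0.11 (adjusted p 0.013), lost without clone 4 replicate 1 (0.077) or clone 5 replicate 1 (0.050) or 3 (0.064). TMED10 was called in neither comparison, with 225, 203 and 209.6 CPM in clone 4 and 208, 205 and 216 CPM in clone 5 with DMSO.

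Of the COPI subunits, ARCN1 and COPB2 were higher in clone 5 in both comparisons. ARCN1 stood at 370.1, 379 and 390.3 CPM against 334, 333 and 328 CPM with DMSO (log2 0.20, adjusted p 1.7e-05) and at 381, 394 and 366 against 351, 339 and 335 CPM with HyT36 (0.16). COPB2 differed by 0.15 (adjusted p 0.00099) and 0.20 (adjusted p 2.3e-05). COPG2 was lower in clone 5 with DMSO (-0.26, adjusted p 0.0031) and did not differ beyond the spread with HyT36 (0.079), and its clone 5 DMSO libraries are also those that its ligand response rests on. COPG2 took 10.1 ± 0.46% (SD, n = 3) of the reads of the gamma pair in clone 5 with DMSO and 11.6 ± 0.47% (n = 3) with HyT36, against 11.4 ± 0.46% and 10.8 ± 0.53% in clone 4 (n = 3 each). COPA was called with HyT36 (0.17, adjusted p 0.00027), and with DMSO without clone 4 DMSO replicate 2 (0.048) and in the libraries high in KRT19 (0.032). COPB1, COPE, COPG1 and COPZ1 were called in neither comparison. COPE, with a DMSO difference of 0.12 (adjusted p 0.056), passed with the term for epithelial libraries (0.16, adjusted p 0.029), without the filter on low counts (0.020), without clone 4 DMSO replicate 2 (0.0036) or clone 5 DMSO replicate 3 (0.048), and in the libraries high in KRT19 (4.9e-05).

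The ARF class held 0 calls of 7 with DMSO and 1 with HyT36 (0% and 14.3%, beside 55.5% and 56.0% of all genes). ARF1 stood at 563, 616 and 561 CPM in clone 4 and 573, 589 and 583 CPM in clone 5 with DMSO, with an interval of the log2 difference from -0.069 to 0.078. ARF3, ARF4 and ARF5 had DMSO differences of -0.042, -0.040 and -0.043, and 0 of the 4 was called in either comparison. ARF4, with a HyT36 difference of -0.089 (adjusted p 0.054), passed with the term for epithelial libraries (-0.12, adjusted p 0.029), in the libraries low in KRT19 (0.025), and without clone 4 DMSO replicate 1 (0.032), clone 4 HyT36 replicate 2 (0.022) or clone 5 HyT36 replicate 2 (0.041). ARF5 passed with DMSO without clone 4 DMSO replicate 1 (0.040). With HyT36, ARFGAP1 passed without clone 4 DMSO replicate 1 (0.043) or clone 5 HyT36 replicate 3 (0.036). ARFGAP3 was called with HyT36, at 17.6, 18.4 and 16.0 against 14.6, 15.3 and 13.2 CPM (log2 0.27, adjusted p 0.01), and the call was lost without clone 4 HyT36 replicate 3 (0.066) or clone 5 HyT36 replicate 2 (0.065). With DMSO, ARFGAP3 passed without clone 5 replicate 3 (0.041) and in the libraries high in KRT19 (0.031). BET1 was higher in clone 5, at 22.5, 24.4 and 24.7 CPM against 17.1, 18.7 and 19.0 CPM with DMSO (log2 0.39, SE 0.075, adjusted p 3.2e-05). With HyT36 its libraries overlapped, and the call (0.21, adjusted p 0.015) was lost without clone 4 replicate 2 (0.076) or 3 (0.074) or clone 5 replicate 2 (0.098). STX5, the SNARE that BET1 pairs with, was called in neither (-0.015 and -0.15), and it passed with HyT36 when clone 4 DMSO replicate 1 or 2, clone 4 HyT36 replicate 1 or clone 5 HyT36 replicate 1 was left out (0.020 to 0.045).

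The epithelial transcripts bear on these comparisons too, since with DMSO they were high in 1 library of clone 4 and in all 3 of clone 5. A fit of all 6 libraries high in KRT19 set those 4 libraries against each other, with 1 of clone 4, and reversed none of the 27 genes. Among genes whose call was lost there, the log2 difference was -0.22 for COPG2, 0.19 for SEC24D, -0.11 for TMED9, 0.25 for GOLGB1 and 0.11 for USO1. For the others that lost it, the difference was -0.059 for TMED2, -0.14 for TMED5, 0.11 for TMED7, -0.085 for KDELR1, 0.16 for GOLGA5 and -0.074 for SEC31A. With a term for these libraries, TMED2, TMED5, KDELR1, GOLGA5 and SEC31A lost their call, and GOLGA4 and COPE gained one. In the HyT36 comparison the same term ended the calls of TMED7, GOLGA5, GORASP2, BET1 and ARFGAP3, and ARF4 gained one. A fit of all 6 libraries low in KRT19 set 1 HyT36 library of clone 4 against 3 of clone 5. It reversed none of the 27 genes called with HyT36. The calls of ARCN1 and those 5 genes were lost there. The log2 difference was 0.12 for ARCN1, 0.052 for TMED7, 0.14 for GOLGA5, 0.087 for GORASP2, 0.078 for BET1 and 0.25 for ARFGAP3. KDELR3, GOLGA3, GOLGA2, SAR1A, GORASP1, GOLIM4, TMED3, GOLPH3, COPB2, SEC16A, SEC23B and SEC24A were called in every alternative run of both comparisons. In the fits restricted in this way the lone clone 4 library is taken to vary as the remaining groups do.

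Among the 84 related genes, 12 were higher and 23 lower in clone 5 with DMSO, and 11 higher and 25 lower with HyT36. That is 41.7% and 42.9% of them, beside 55.5% and 56.0% of all genes. The widest difference with DMSO was in the TRAPP tether. TRAPPC6A stood at 15.4, 13.6 and 13.6 CPM against 5.67, 6.16 and 4.70 CPM with DMSO (log2 1.36, SE 0.10, adjusted p 1.4e-14). Of the same tether, TRAPPC2 differed by 0.87 and TRAPPC3 by 0.34. COG5, of the COG tether, was lower (-0.43). The ERGIC proteins ERGIC1 (-0.48), ERGIC2 (-0.43) and ERGIC3 (-0.13) and the cargo receptor LMAN1 (-0.10) were lower, 4 of the 8 ERGIC receptors (50%, beside the 55.5% of all genes called), with 0 higher. MIA2 (-0.51), MIA3 (-0.25) and TMED1 (-0.49) were lower and TMED8 higher (0.26). In the list of SNAREs and their SM partners, USE1 (-0.39), STX18 (-0.18) and SCFD1 (-0.14) were lower. TFE3, a factor that raises Golgi genes under Golgi stress, was higher in clone 5 (0.71, adjusted p 9.8e-15, and 0.74 with HyT36), as was CREB3L4 (0.46), while ATF6 (-0.23) and CREB3L2 (-0.16) were lower.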

How the data were processed

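Bulk RNA of 12 HEK293 libraries was measured, 3 in each of 4 groups. Per the labels' protocols, RNA was selected by polyA and libraries were made at a sequencing service. The authors deposited 1 table of raw gene counts, not normalized, per the file headers. The submitters' processing notes name Cell Ranger 7 and GRCh38, with no role stated for these libraries. The aligner, the annotation and whether counting used strand: not given in the sources used here. Of the 36 samples of the series, 24 (single-cell and guide libraries) were not analysed here.

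Tests used edgeR 4.0.16 in R 4.3.3 on the counts as deposited: filterByExpr by group, TMM scaling, 1 mean per group over all 12 libraries, robust quasi-likelihood F-tests (two-sided) and Benjamini-Hochberg adjustment over 14892 genes at 0.05. Guide features and summary entries (unmapped 3.18 to 4.26%, multimapping 2.23 to 2.82%, no feature 2.95 to 4.18%, ambiguous 6.75 to 7.15%) stayed out of library sizes and tests. The prior count behind log2 fold changes was 0.125. An SE is the absolute log2 fold change over the square root of F, and 95% intervals are 1.96 SE to each side, both approximations. The fit was tested on simulated data.

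The members and lists were chosen with earlier results of these data known, and no test was made over a list. Values per library are given for each listed gene called in a comparison and its close paralogs, with up to 4 called genes per related list and comparison. The clone comparison with HyT36 and the paralog read shares were added after seeing the data, and a paralog share is a description. Alternatives were no filter, DESeq2's size factors, DESeq2 1.42.0, limma-voom (limma 3.58.1), a replicate block, each clone alone, each library left out, and a term for or restriction to libraries by KRT19 at 10 CPM. Coordinates and promoters are RefSeq's on GRCh38.p14, matched by symbol. Of the listed genes, 32 overlap another RefSeq gene and 11 have named pseudogene copies, 31 in all, so shared reads may affect them.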

Additional observations from a re-analysis of the deposited data

Results flagged for a closer look

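XBP1, a transcription factor of the response to misfolded proteins, was flagged because its ligand responses differed between the clones in the interaction test. The difference, clone 5 minus clone 4, was -0.58 on the log2 scale (SE 0.055, edgeR adjusted p 6.9e-09). XBP1 rose in all 3 HyT36 libraries of clone 4, to 197, 198 and 203 CPM from 133, 134 and 133 CPM. The clone 5 libraries overlapped, at 136, 127 and 130 CPM with DMSO and 132, 127 and 134 CPM with HyT36. Of the 48 trafficking genes 0 passed this test, beside 0.302% of all genes.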

How the results depend on the processing

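No called gene of the list reversed in any alternative run. Of 1254 values of called genes under alternatives, 1160 kept call and direction and 94 kept the direction and lost the call. Leaving out single libraries gave 409 to 851 genes called in clone 4 (830 as reported) and 0 to 3 listed genes (2 as reported), 755 to 1618 in clone 5 (1219) and 25 to 140 in the difference (45). The clone 4 count fell most without HyT36 replicate 1 (545), 2 (532) or 3 (409), its listed genes without DMSO replicate 2 (1) or HyT36 replicate 1 (1) or 3 (0), the clone 5 count without DMSO replicate 1 (755), and the difference changed most without clone 4 DMSO replicate 1 (140) or HyT36 replicate 2 (27) and clone 5 HyT36 replicate 1 (25) or 2 (29). In clone 4 libraries low in KRT19 alone, 287 genes and 0 listed genes were called, with fewer libraries in the fit. Those high in KRT19 alone held 1 DMSO library of clone 4, so only effect sizes are given. The log2 estimates there were 0.30 for COPE, 0.22 for GOLPH3 and 0.22 for ARF5, none of them called as reported. For the genes called as reported they were -0.11 for TMED9 and -0.18 for ARFGAP1. With a term for epithelial libraries, 776 genes and 2 listed genes (TMED9 and ARFGAP1) were called in clone 5 and 244 in the difference, and without the filter on low counts 169 in the difference; the cause was not tested. The share of calls that were higher was 40.9% in clone 5, 48.8% with DESeq2's size factors and 50.9% with DESeq2, and 39.6% in clone 4, 42.1% and 48.7%. No scaling moved the median of all genes by over 0.1. Same-numbered libraries deviated together little (18 pairs, r from -0.32 to 0.17, 3 over 0.1). Pairs with different numbers were not compared, so this does not settle whether the numbers pair libraries. A replicate block gave 715 genes and 2 listed genes in clone 4, 1083 and 6 in clone 5, and 43 and 0 in the difference. Between the clones it ended the call of KDELR1 with DMSO and no listed call with HyT36. Each clone fitted alone gave 870 genes and 2 listed genes in clone 4, and 1433 and 6 in clone 5. Only KRT19-high or only KRT19-low libraries could not be fitted for clone 5. Depth limits KDELR3, with as few as 111 reads.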
